A study of Schmidtea mediterranea with 28 samples.

Results

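The planarian *Schmidtea mediterranea* carries several transcripts whose closest human protein is TIA1 or its sister TIAL1. Of 7 such transcripts in the study's annotation, 3 are described here, comp8035_c0_seq1, comp10924_c0_seq1 and comp3605_c0_seq1 (comp8035, comp10924 and comp3605 hereafter), out of 22944 transcripts measured in each of 28 libraries. The 3 were chosen by measured values, namely their levels in sorted cell fractions: comp8035 was highest in X2, comp10924 in Xins and comp3605 in X1. The fraction levels below are therefore a description without a test, and only the responses to RNAi, which played no part in the choice, were tested.

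In vertebrates TIA1 and TIAL1 are RNA-binding proteins with RNA recognition motifs and an aggregation-prone tail. In the nucleus they bind U-rich RNA just downstream of weak 5′ splice sites and help the U1 snRNP to settle there, and in the cytoplasm they hold back translation of bound messages and gather with them in stress granules. The X1 fraction is enriched in cycling neoblasts, the planarian stem cells, sorted as cells that have replicated their DNA. X2 cells have unreplicated DNA and stain weakly for the cytoplasmic dye calcein. That gate is enriched in neoblast progeny and, by the paper's account, also holds stem cells. Xins cells have unreplicated DNA, stain strongly for calcein and are enriched in differentiated cells.

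All animals belonged to the asexual Berlin-1 strain, a line grown from 1 individual. RNAi animals were injected with dsRNA at 1 µg/µl on 3 consecutive days, *control*(*RNAi*) animals received dsRNA of GFP, and wild type animals none. Where several dsRNAs were combined each was at 1 µg/µl, so the total dose was larger. The GFP dsRNA was adjusted, when appropriate, to the highest concentration given to the RNAi groups. Whole worms gave 9 libraries, 1 each for *control*, *bruli*, *celf*, *esrp*, *mbnl*, *nova*, *ptbp*, *rbfox1* and *rbfoxS* (labelled as *Rbfox* genes), where *mbnl*(*RNAi*) combined dsRNA against several *muscleblind*-like genes. Sorted cells gave 7 X1 libraries (2 *control*, 2 *bruli*, 2 *mbnl*, 1 wild type), 4 X2 libraries (1 of each) and 8 Xins libraries (2 of each). Nothing states that replicates came from separate groups of animals, so p-values measure the spread between libraries only, which may be technical.

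In units of 1e6 counts, the libraries held 12.8 to 16.4 for whole worms and 15.8 to 35.0 for sorted cells. The sort labels were borne out by the 5 neoblast markers (the 2 *PIWIL1*-like, 2 *DDX4*-like transcripts and *bruli*), whose summed level in unperturbed cells was 14639 to 15249 CPM in X1, 4165 to 4899 in X2 and 434 to 741 in Xins. CPM are counts per 1e6 counts after 1 common scaling of all 28 libraries (trimmed mean of M-values, TMM). The 9 neural RNA-binding transcripts ran the other way, at 163 to 166, 251 to 299 and 396 to 537 CPM. The knockdown of *bruli*, a CELF-family gene that neoblasts need in order to persist, was visible in its own transcript (comp2592), at 130 and 179 CPM in X1 against 1037 and 1360 in the controls. The RNA is bulk, so fewer cells of a type and less RNA per cell cannot be told apart.

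comp8035 was the X2-high transcript. Its level was 50.8 CPM in the *control*(*RNAi*) X2 library, 44.7 in wild type, 55.9 after *bruli* RNAi and 54.8 after *mbnl* RNAi. Those 4 libraries stood above every other library of the series. In X1 the 7 libraries lay between 25.0 and 30.1 CPM (median 27.2), and in Xins the 8 libraries lay between 16.1 and 23.6 CPM (median 21.0). Whole worms held 14.0 to 16.7 CPM (median 15.1), so the order was X2, X1, Xins, whole worm, with Xins and whole worm overlapping.

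The step from X1 to Xins was the small one. In unperturbed cells (control and wild type) comp8035 was at 28.3 ± 1.61 CPM in X1 (SD, n = 3), 47.7 ± 4.29 in X2 (n = 2) and 20.4 ± 3.17 in Xins (n = 4). The fitted log2 difference was 0.97 between X2 and Xins, 0.75 between X2 and X1 and 0.22 between X1 and Xins. The sign of the last one depended on the scaling: on the deposited cRPKM (reads per kilobase of mappable positions, corrected for library size), without TMM, it was −0.19. There the median of all transcripts stood at −0.51, against −0.15 with TMM, so comp8035 lay 0.32 and 0.37 above the median of all transcripts respectively. Quantile normalization placed it 0.03 below that median. X2 was the highest fraction under every scaling tried.

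comp10924 was the Xins-high transcript and was nearly missing from X1. The X1 libraries gave 31 and 29 counts in the controls and 36 in wild type, which is 1.73, 1.29 and 1.59 CPM. The exact 95% Poisson interval of the 29 counts runs from 19.4 to 41.6 counts and covers counting error only. In unperturbed X2 it was at 14.2 CPM (control) and 12.2 CPM (wild type), and in Xins at 32.9 and 39.4 (controls) and 38.1 and 19.0 (wild type). The fractions did not overlap, and X2 lay between the others.

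The second wild type Xins library gave low values. Its comp10924 level of 19.0 CPM was the lowest of all 8 Xins libraries, where the next lowest was 32.9 and the highest 52.2. The same library had the lowest comp8035 (16.1 CPM) and comp3605 levels (44.0 CPM) of the 8. Its neural sum was 396 CPM against 516 to 537 in the other unperturbed Xins libraries. The family transcripts comp2434 (44.8 CPM), comp2139 (53.7) and comp3545 (36.6) were not at their Xins lowest there, whereas comp45156 was (0.07). By Dixon's gap over range among the 4 unperturbed Xins libraries no member was an outlier (comp10924 0.68, comp8035 0.61, comp3605 0.66, critical value 0.829). Without this library the X1 to Xins difference of comp10924 went from −4.64 to −4.82 on the log2 scale. That of comp8035 went from 0.22 to 0.13 and that of comp3605 from 3.21 to 3.14. What part the make-up of that library had in these values was not tested.

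In whole worms comp10924 was at 17.2 to 23.8 CPM (median 21.0), a range that overlapped both X2 (12.2 to 18.9 over all treatments) and Xins. X1 stayed apart from every other kind of library, at 1.29 to 3.91 CPM. The log2 difference was −4.64 between X1 and Xins, −1.55 between X2 and Xins and 3.09 between X2 and X1. The transcript passed the filter on low values (a mean log2(cRPKM + 1) above 1.5 over the libraries fitted) through its Xins level, since the mean over the X1 libraries of the RNAi fit alone was 0.91.

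comp3605 had the reverse order and was the most abundant of the 3. In X1 it was at 589 and 565 CPM in the controls and 546 in wild type. In X2 it was at 262 (control) and 231 CPM (wild type), and in Xins at 64.5 and 51.0 (controls) and 47.3 and 44.0 (wild type). Each unperturbed fraction was separate from the next, with log2 differences of 3.21 between X1 and Xins, 2.00 between X2 and Xins and −1.21 between X2 and X1. Whole worms held 67.6 to 95.6 CPM (median 81.8), above all Xins libraries and below all X2 libraries. With RNAi included X1 (347 to 589) and X2 (179 to 352) touched, because the *mbnl* X2 library lay above a *bruli* X1 library.

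**Figure D1:**
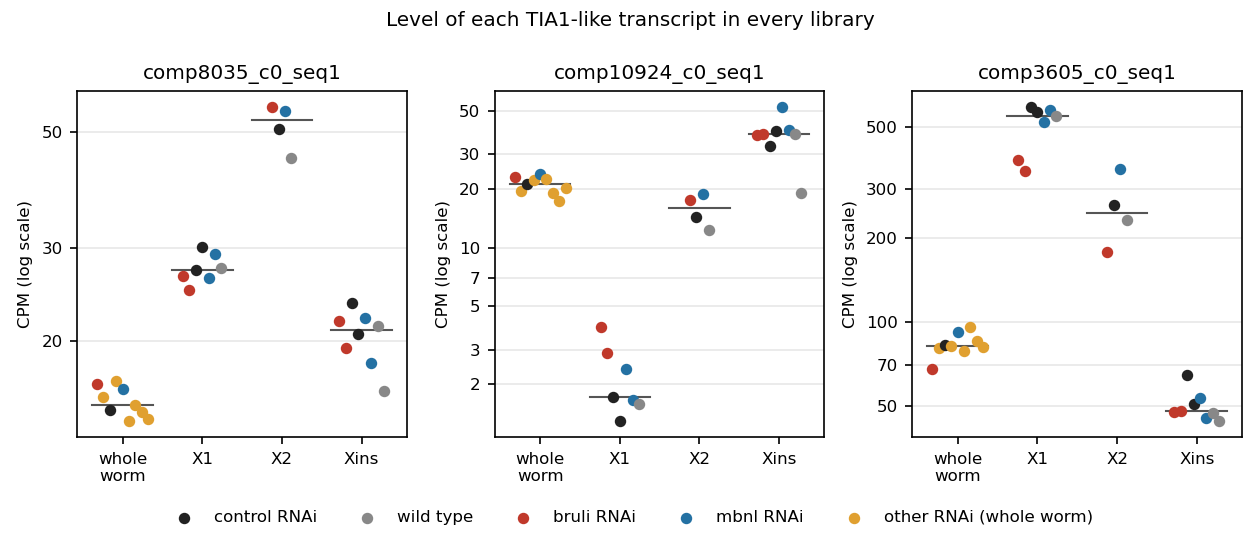
Level of comp8035, comp10924 and comp3605 in each of the 28 libraries, as TMM-scaled CPM on a log axis. Each point is 1 library, coloured by treatment, and each bar is the median of that kind of library. comp8035 peaks in X2 (44.7 to 55.9 CPM), comp10924 in Xins (19.0 to 52.2) and comp3605 in X1 (347 to 589), where the 2 *bruli*(*RNAi*) libraries are the lowest.

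The order of the fractions was the same in cells from RNAi animals. Their libraries belong to the series over which the members were chosen, so this is a description and not an independent check. Over the *bruli* and *mbnl* libraries the log2 differences between X1 and Xins were 0.24, −4.09 and 3.08 for comp8035, comp10924 and comp3605. Between X2 and X1 they were 1.09, 2.78 and −0.76. The largest shifts against unperturbed cells thus concerned comp10924 between X1 and Xins and comp3605 between X2 and X1.

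Levels of different transcripts can be compared per unit of length, as cRPKM. Counts and cRPKM together imply a mappable length of 0.725 kb for comp8035, 1.79 kb for comp10924 and 1.66 kb for comp3605, if the cRPKM of the whole worm control are scaled to its sum of counts. Within a library the ratio of cRPKM does not depend on library scaling. comp3605 was 366 to 474 times as abundant as comp10924 in unperturbed X1, 19.9 to 20.4 times in X2, and 1.34 to 2.50 times in Xins. Against comp8035 it was 8.18 to 9.45 times as abundant in X1, 2.25 to 2.26 times in X2 and 0.967 to 1.20 times in Xins. In Xins the 3 transcripts were thus within a factor of 2.50 of each other, and in X1 they were spread over more than 2 orders of magnitude.

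The family share gives the same picture on the scale of all 7 *TIA1* and *TIAL1* transcripts. Of their summed cRPKM comp8035 held 3.55% ± 0.28 in unperturbed X1 (SD, n = 3), 10.7% ± 0.09 in X2 (n = 2) and 15.6% ± 1.65 in Xins (n = 4). Its share was thus highest in Xins, where its cRPKM (26.1 to 38.5) overlapped that in X1 (24.8 to 31.9), while comp3605 and 3 of the other family transcripts (comp2434, comp2139 and comp3545) had lower cRPKM in every unperturbed Xins library than in any X1 library. comp10924 went from 0.078% ± 0.010 in X1 to 1.20% ± 0.01 in X2 and 10.0% ± 3.07 in Xins. comp3605 went from 31.0% ± 0.30 to 24.2% ± 0.25 and 17.2% ± 0.92. In whole worms the 3 held 8.44% to 11.9%, 4.02% to 6.64% and 21.3% to 23.8%.

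**Figure D2:**
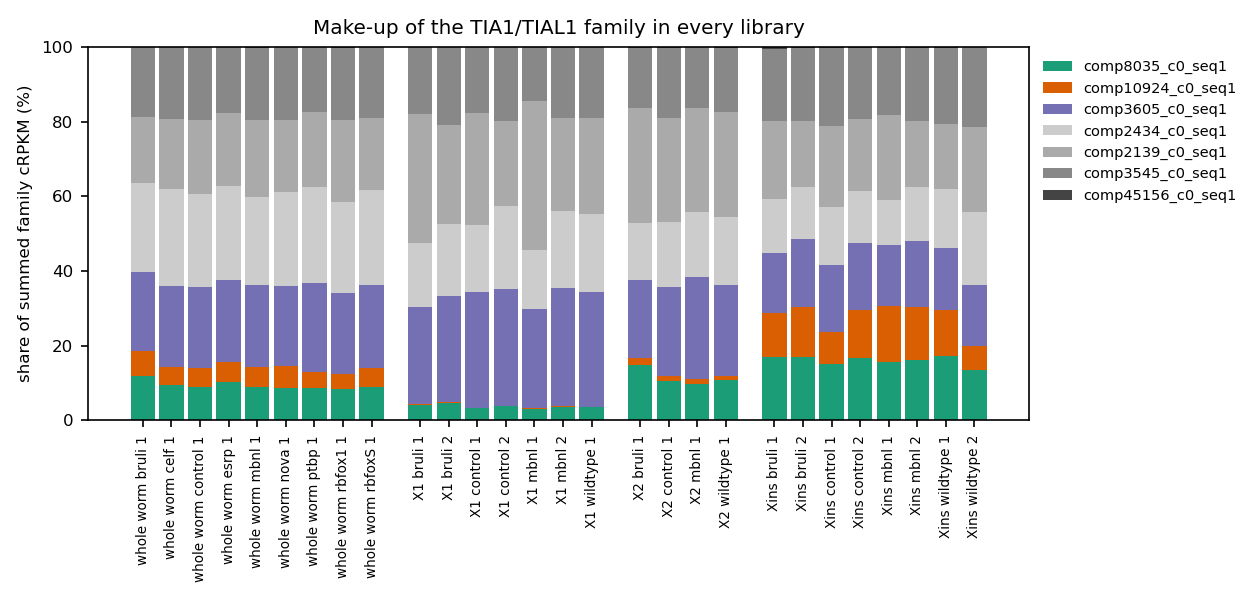
Share of each *TIA1* or *TIAL1* transcript in the summed cRPKM of the 7, in percent, for every library (1 bar each, replicate number last). comp10924 (orange) is a thin line in X1 (0.078% on average in unperturbed cells) and a broad band in Xins (10.0%), while comp3605 (violet) narrows from 31.0% to 17.2%.

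The other family members resembled comp3605 rather than the other two. The *TIA1*-like comp2434_c0_seq1 was higher in X1 than in Xins by 2.68 ± 0.15 on the log2 scale (SE, edgeR's quasi-likelihood test, adjusted p = 1.03e-06), the *TIA1*-like comp2139_c0_seq1 by 2.73 ± 0.20 (adjusted p = 3.36e-06) and the *TIAL1*-like comp3545_c0_seq1 by 2.23 ± 0.15 (adjusted p = 1.85e-06). These are 3 of 3 tested, where 38% of 12665 transcripts were called higher in X1 and 43.3% lower. All 3 were also lower in X2 than in X1, by −1.05, −0.76 and −0.90, where 25.3% of transcripts were called higher and 21.4% lower, and higher in X2 than in Xins, by 1.63, 1.97 and 1.33 (29.3% higher and 33.7% lower overall). The call for comp2139 between X2 and X1 (edgeR, adjusted p = 0.0297) was the least stable. It was lost with limma on cRPKM (log2 −0.47, adjusted p = 0.0582) and after quantile normalization (−0.38, 0.152), in RNAi-treated libraries (−0.72, 0.148), and without the first X1 control (−0.58, 0.0802), the X1 wild type (−0.81, 0.0573), the X2 control (−0.82, 0.0952) or the X2 wild type library (−0.63, 0.153). The call for comp2434 between X2 and X1 was lost in RNAi-treated libraries (−0.70, adjusted p = 0.062). The second *TIAL1*-like transcript, comp45156_c0_seq1, gave 1 to 30 counts in any library and was below the filter.

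comp2139 also differed by replicate number. Its X1 level was 496, 441 and 677 CPM in the replicate 1 libraries of *control*, *bruli* and *mbnl* and 357, 284 and 394 CPM in the replicate 2 libraries. All 3 pairs went the same way, and so did the 3 pairs in Xins (68.0, 53.8 and 63.8 against 47.5, 39.8 and 39.7 CPM). Depth divides along the same line, with every sorted RNAi library numbered 1 shallower than every one numbered 2.

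Genes of the cytoplasmic and nuclear roles of TIA1 were listed for comparison. Of all 12665 transcripts 38% were called higher in X1 than in Xins and 43.3% lower. Of 21 stress granule and translation transcripts 16 passed the filter, 12 of them higher and 3 lower in X1 than in Xins, with a median log2 difference of 1.25 against −0.15 over all transcripts. The largest differences were those of *PABPC1*-like comp11729_c0_seq1 (5.05 ± 0.52), a poly(A)-tail-binding protein, of *CPEB3*-like comp8889_c0_seq1 (−4.91 ± 0.52), which binds polyadenylation elements, and of *ELAVL1*-like comp11311_c0_seq1 (−2.68 ± 0.30), which binds AU-rich elements. All 3 were called by edgeR's quasi-likelihood test (adjusted p of 1.93e-05, 2.48e-05 and 3.54e-05). Of 11 U1 snRNP transcripts all 11 were higher in X1 (median 2.56), led by *SNRPA*-like comp2444_c0_seq1 (3.10 ± 0.17), the U1 A protein, and the Sm-ring proteins *SNRPD2*-like comp2994_c0_seq1 (3.09 ± 0.14) and *SNRPN*-like comp887_c0_seq1 (3.06 ± 0.15).

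Between X2 and X1 the stress granule and translation list had 2 transcripts higher and 5 lower of 16, and the U1 snRNP list 0 higher and 9 lower of 11, where 25.3% of all transcripts were higher and 21.4% lower. comp8889 and comp11311 were the 2 higher ones, by 3.71 and 2.02, and comp11729 fell by 3.21.

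The marker lists had the following differences between X1 and Xins, where 38% of all transcripts were called higher and 43.3% lower. All 5 neoblast markers were higher in X1 than in Xins (median log2 4.23), led by *PIWIL1*-like comp659_c0_seq1 (6.62 ± 0.57), a PIWI protein. Of 9 neural RNA-binding transcripts 8 were lower and 1 higher (median −2.45), with *MSI1*-like comp13817_c0_seq1 at −7.15 ± 0.46 and *MSI2*-like comp8902_c0_seq1 at −6.07 ± 0.31, both of the Musashi family. Of 3 muscle RNA-binding transcripts 2 were lower, *RBPMS*-like comp4296_c0_seq1 (−6.38 ± 0.30) and *RBM38*-like comp11304_c0_seq1 (−5.12 ± 0.56), and both epithelial ones were, *ESRP1*-like comp5053_c0_seq1 (−2.31 ± 0.26) and *ESRP2*-like comp7995_c0_seq1 (−1.28 ± 0.38).

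**Figure D3:**
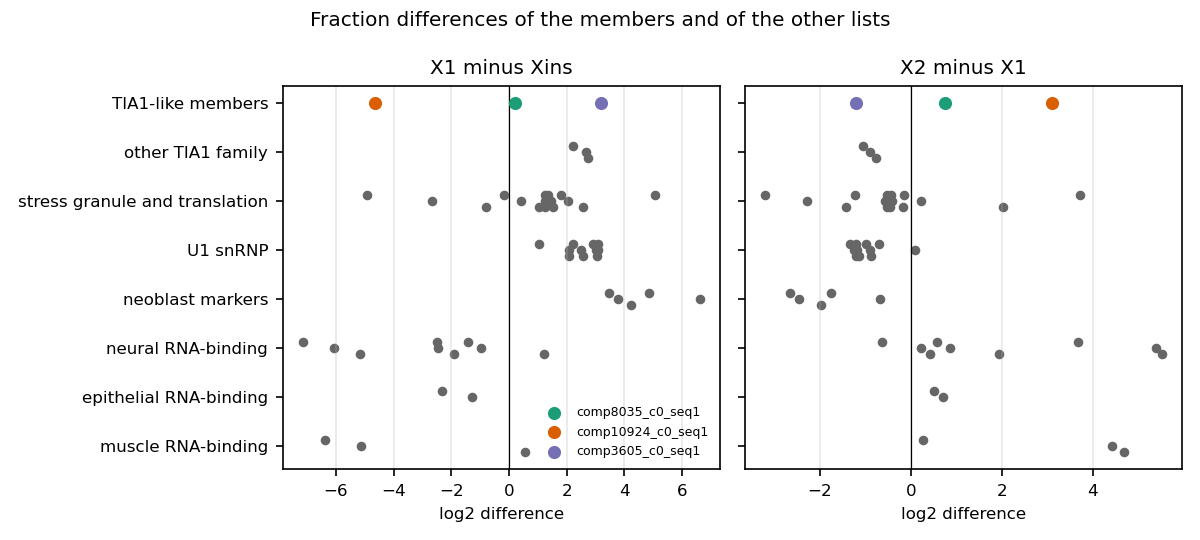
Log2 difference between X1 and Xins (left) and between X2 and X1 (right) in unperturbed cells, for the 3 members (coloured, edgeR estimates, no test) and for each transcript of the other lists (grey). comp10924 lies at −4.64 and 3.09, comp3605 at 3.21 and −1.21, with the other family transcripts near comp3605, and comp8035 lies at 0.22 and 0.75.

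The transcripts with the most similar pattern were sought by Pearson's r of log2(CPM + 1) over all 28 libraries. This is a description whose points share fractions, depth and replicate numbers. For comp10924 the nearest with a human name were *RBPMS*-like comp4296 (r = 0.988), *ELAVL4*-like comp13151_c0_seq1 (0.984), a neuronal RNA-binding protein, and *MSI1*-like comp13817 (0.982). All 3 stand on the neural or muscle lists, not all of whose transcripts were low in X1. There X1 minus Xins was 1.22 for *ELAVL4*-like comp10994_c0_seq1 and 0.55 for *RBM24*-like comp11008_c0_seq1. The 3 nearest were lowest in X1, at 0.838, 0.953 and 0.160 CPM in unperturbed cells against 58.6, 29.1 and 19.6 in Xins. That order follows from their choice by likeness to comp10924. The nearest without a name were comp7374_c0_seq1 (0.993) and comp14579_c0_seq1 (0.992).

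For comp3605 the nearest were *TRA2B*-like comp4073_c0_seq1 (0.994), a splicing activator, *SART3*-like comp6820_c1_seq1 (0.994), which recycles U4/U6 snRNPs in human cells, and *SARNP*-like comp2297_c0_seq1 (0.993), a protein of mRNA export. They were at 349, 166 and 354 CPM in unperturbed X1 against 39.5, 21.5 and 46.9 in Xins. The nearest without a name were comp3736_c0_seq1 (0.994) and comp4087_c0_seq1 (0.993).

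For comp8035 the likeness was looser. The nearest named transcripts were *DAZAP1*-like comp1047_c0_seq1 (0.922), *RBM39*-like comp4802_c0_seq1 (0.900) and *RBM15*-like comp7282_c0_seq1 (0.899), and the nearest without a name comp6308_c0_seq1 (0.959) and comp4289_c0_seq1 (0.953). The unnamed pair came closest in shape, at 55.8 and 59.9 CPM in X1, 123 and 124 in X2 and 54.8 and 51.2 in Xins, whereas *RBM39* was almost level between X1 (93.9 CPM) and X2 (98.4 CPM). Among the members themselves r was −0.92 between comp10924 and comp3605, −0.34 between comp8035 and comp10924 and 0.61 between comp8035 and comp3605.

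The RNAi comparisons ask whether loss of *bruli* or of the *muscleblind*-like genes changes the members within a fraction. All 4 comparisons used edgeR's quasi-likelihood test on the 12 sorted X1 and Xins RNAi libraries, 2 per group, with 12494 transcripts tested. No member passed an adjusted p of 0.05 in any of the 4 comparisons, and neither did any other transcript, so the background share was 0% in each of them. The uncalled transcripts included *bruli* itself after its own RNAi, at a log2 difference of −2.94 in X1. A missing call here therefore does not show that a transcript was unchanged. At an unadjusted p under 0.05 there were 890 transcripts for *bruli* in X1, 79 for *bruli* in Xins, 212 for *mbnl* in X1 and 202 for *mbnl* in Xins. In the same order DESeq2 called 109, 7, 1 and 2 transcripts, and limma on cRPKM called 3, 0, 0 and 0. edgeR with the replicate number as a block called 128 for *bruli* in X1 and 0 in the other comparisons. No member was among any of these calls.

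*bruli* RNAi in X1 gave the widest separation of the members. comp10924 was at 3.91 and 2.89 CPM (64 and 63 counts) after *bruli* RNAi, against 1.73 and 1.29 in the controls (31 and 29 counts), a log2 difference of 1.19 ± 0.34 (SE, edgeR, adjusted p = 0.389). Both *bruli* libraries lay above both control libraries. Of all transcripts 38.1% had both *bruli* libraries above or both below both controls. Within replicate number 1 the log2 ratio to control was 1.18 and within number 2 it was 1.16. The alternatives gave adjusted p from 0.0908 upward, and none made a call. On the limma scale, log2(cRPKM + 1), the difference was 0.58, or 0.76 after quantile normalization.

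comp3605 went the other way in the same libraries. It was at 382 and 347 CPM after *bruli* RNAi against 589 and 565 in the controls, a log2 difference of −0.64 ± 0.23 (edgeR, adjusted p = 0.543), or −0.63 and −0.70 within replicate numbers 1 and 2. Both *bruli* libraries lay below both control libraries. comp8035 was at 26.5 and 25.0 CPM against 27.2 and 30.1, a log2 difference of −0.14 ± 0.25 (edgeR, adjusted p = 0.996). All 3 members were thus without overlap between *bruli* and control libraries, which was also true of 38.1% of all transcripts in this comparison.

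No transcript of the other lists was called in these libraries, and their levels were as follows. The 4 neoblast markers other than *bruli* summed to 5518 and 5923 CPM in the *bruli* X1 libraries against 13602 to 13890 in unperturbed X1, and none of the 4 was at 0. The 9 neural RNA-binding transcripts summed to 207 and 234 CPM against 163 and 166 in the controls, with 8 of 9 estimates above 0 and a median log2 difference of 0.51, and the 3 muscle ones to 15.9 and 19.3 against 13.1 and 17.8. No defining marker of these lists was at 0 in the X1 libraries. Their part in the values of comp10924 and comp3605 was not tested. The other 3 family transcripts had estimates from −0.57 to −0.22, the 11 U1 snRNP transcripts a median of −0.39 and the 16 stress granule and translation transcripts a median of −0.07, against 0.01 over all transcripts.

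In Xins the estimates for *bruli* RNAi were closer to 0. comp10924 was at 37.8 CPM in both *bruli* libraries against 32.9 and 39.4 (log2 0.07 ± 0.31), comp8035 at 21.8 and 19.3 against 23.6 and 20.6 (−0.10 ± 0.25) and comp3605 at 47.7 and 48.0 against 64.5 and 51.0 (−0.26 ± 0.23). Only comp3605 did not overlap, which held for 16.8% of all transcripts. The difference of the *bruli* effect between X1 and Xins was 1.12 ± 0.46 for comp10924, −0.38 ± 0.33 for comp3605 and −0.04 ± 0.36 for comp8035 (edgeR's interaction term, adjusted p = 1.00 for each). No transcript was called there (0%), with 343 at an unadjusted p under 0.05, 7 called by DESeq2 and 0 by limma, so the fractions are not shown to differ in their response. The estimate for comp10924 was 0.53 with limma on cRPKM.

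After *mbnl* RNAi the estimates were smaller than those of *bruli* RNAi in X1 for comp10924 and comp3605. The knockdowns differed in size in X1. Neither *mbnl-1* nor *mbnl-like-1* had an estimate below −1.09 there after *mbnl* RNAi, against −2.94 for *bruli* after its own RNAi. In Xins neither was below −2.22. What part this had in the estimates of the members was not tested. comp10924 was at 2.40 and 1.67 CPM in X1 against 1.73 and 1.29 (log2 0.42 ± 0.35) and at 52.2 and 39.8 in Xins against 32.9 and 39.4 (0.34 ± 0.31). comp3605 was at 519 and 575 in X1 (−0.07 ± 0.23) and at 53.6 and 45.3 in Xins (−0.23 ± 0.23), and comp8035 at 26.3 and 29.3 in X1 (−0.04 ± 0.25) and 22.1 and 18.2 in Xins (−0.14 ± 0.25). None of the 3 was free of overlap in X1 (18.4% of all transcripts were) and only comp10924 in Xins (14.8% of all transcripts), where its 2 replicates disagreed, at log2 0.67 within number 1 and 0.01 within number 2. The interaction estimates were 0.08, 0.15 and 0.10 for comp10924, comp3605 and comp8035, all under their standard errors of 0.46, 0.33 and 0.36, with no transcript called (0%, 107 at an unadjusted p under 0.05, 0 by DESeq2 and by limma).

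**Figure D4:**
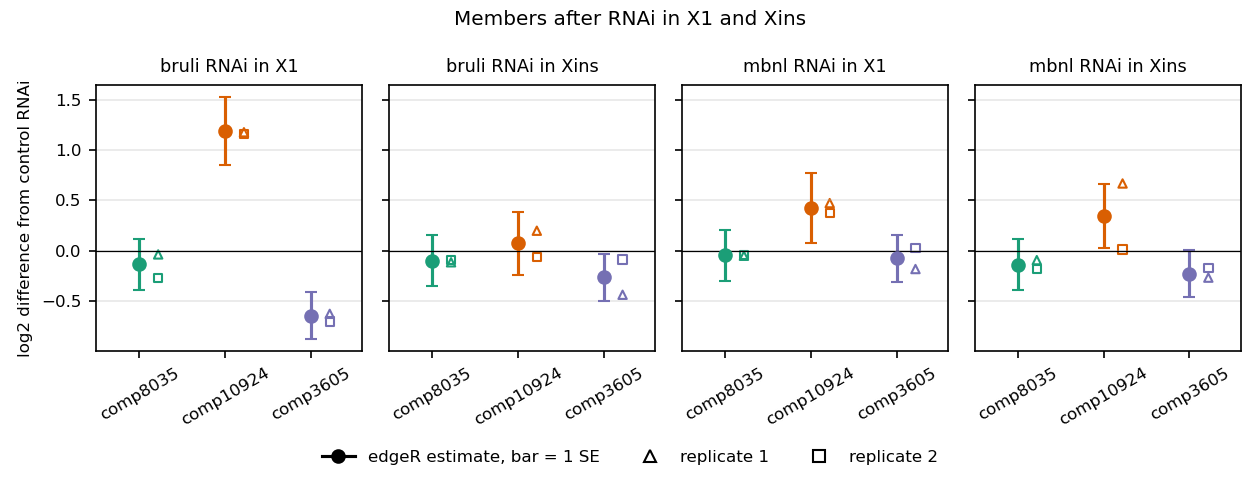
Log2 difference from control RNAi of the 3 members after *bruli* or *mbnl* RNAi in X1 and Xins. Filled points are edgeR estimates from 2 libraries per group with bars of 1 SE, and open symbols are the ratios within each replicate number. comp10924 at 1.19 and comp3605 at −0.64 after *bruli* RNAi in X1 stand farthest from 0, and no estimate passed the threshold.

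X2 has 1 library per treatment, so its values carry no test. After *bruli* RNAi comp3605 was at 82.6 cRPKM against 115 in the control, a log2 ratio of cRPKM + 1 of −0.48, while comp10924 was at 7.50 against 5.81 (0.32) and comp8035 at 59.1 against 51.3 (0.20). The direction of comp10924 and comp3605 was that seen in X1. After *mbnl* RNAi the ratios were 0.17, 0.13 and −0.14 for comp3605, comp10924 and comp8035. None passed 0.7 in either direction, as 9.26% of transcripts did for *bruli* and 16.4% for *mbnl*, whose median over all transcripts was −0.19. The 4 neoblast markers other than *bruli* summed to 1812 CPM in the *bruli* X2 library against 3818 in the control.

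In X2 the family shares of the *bruli*(*RNAi*) library differed from those of the other libraries. comp8035 held 15.0% of the family cRPKM against 10.6% in the control, 10.8% in wild type and 9.76% after *mbnl* RNAi, comp10924 held 1.90% against 1.19% to 1.36% in the other 3 libraries, and comp3605 held 20.9% against 24.0% to 27.4%. The shares have a common sum, and 1 library per treatment gives no replicate check. In cRPKM comp8035 after *bruli* RNAi (59.1) lay between the control (51.3) and wild type (65.0). comp10924 was at 7.50 against 7.19 in wild type. comp3605, comp2434, comp2139 and comp3545 had lower cRPKM in the *bruli* library than in any other X2 library.

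In whole worms all 8 knockdowns left the members within a log2 ratio of 0.7 of the control. comp8035 ranged from −0.11 (*nova*) to 0.32 (*bruli*), comp10924 from −0.27 (*rbfox1*) to 0.26 (*bruli*) and comp3605 from −0.12 (*bruli*) to 0.25 (*ptbp*). So 0 of 24 values passed 0.7, where the share of all transcripts that did was 6.33% for *bruli*, 3.15% for *celf*, 1.18% for *esrp*, 1.6% for *mbnl*, 3.24% for *nova*, 1.24% for *ptbp*, 0.801% for *rbfox1* and 3.06% for *rbfoxS*. For *bruli* the counting interval of the count ratio was 0.08 to 0.59 for comp8035, 0.07 to 0.50 for comp10924 and −0.24 to −0.01 for comp3605. These intervals cover counting error only and not the spread between animals. The median log2 ratio of all transcripts for *bruli*, on cRPKM + 1, was 0.12, which lies inside the intervals of comp8035 and comp10924. The share of all transcripts whose interval left out 0 was not computed, so these intervals do not set the members apart.

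The *bruli*(*RNAi*) worm library again had comp8035 and comp10924 at their largest family shares among whole worms, 11.9% and 6.64%, against 8.85% and 5.11% in the control, with comp3605 at its lowest, 21.3%. In that library the 4 neoblast markers other than *bruli* summed to 621 CPM against 1208 in the control. With 1 library per knockdown this has no replicate check.

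**Figure D5:**
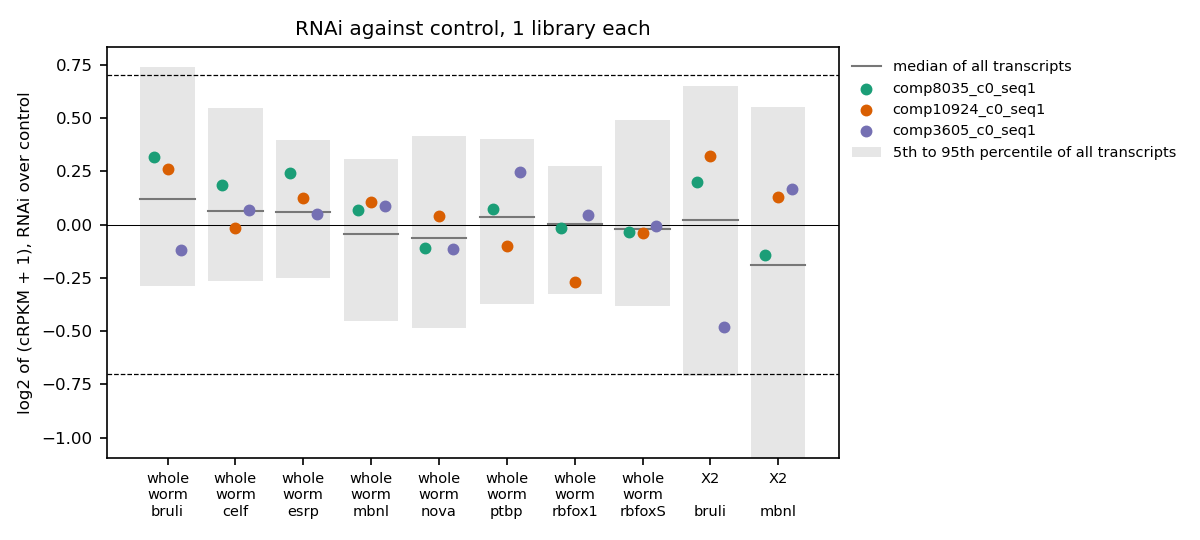
Log2 ratio of cRPKM + 1 between each RNAi library and its control, 1 library each, for whole worms (8 knockdowns) and X2 (2 knockdowns). Coloured points are the members, grey bars run from the 5th to the 95th percentile of all transcripts kept with the median as a line, and dashed lines mark 0.7 in each direction. All 30 member values lie inside the dashed lines, from −0.48 to 0.32.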

How the data were processed

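Poly(A) RNA was sequenced from 28 samples. The authors mapped the reads with Bowtie (version not given in the sources used here) to a de novo transcriptome and computed with vast-tools, per transcript, a deposited RPKM value corrected for mappable positions (cRPKM) and a deposited raw count, both used here. Blank counts, all with a cRPKM of 0, were read as 0. Groups followed the sample labels. The members and lists were chosen with earlier results of these data known, and gene names are the study's best human hits. Close paralogues may share reads.

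RNAi and fraction comparisons used edgeR 4.0.16 (TMM, quasi-likelihood test, Benjamini-Hochberg adjustment, threshold 0.05) in R 4.3.3 on 12 RNAi and 9 unperturbed sorted libraries, with transcripts kept at a mean log2(cRPKM + 1) above 1.5. The code was tested on simulated data. Single libraries were compared as log2 ratios with a pseudocount of 1 and a threshold of 0.7, which understate changes of low transcripts. Alternatives were DESeq2 1.42.0 and its size factors, limma 3.58.1, no filter, a replicate block, leaving out each library, a pseudocount of 0.1 and counts in place of cRPKM. Named were the members, the other family transcripts, up to 3 per list with the largest X1 to Xins difference, and the 3 named and 2 unnamed transcripts most correlated with each member.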

Additional observations from a re-analysis of the deposited data

How the results depend on the processing

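No member was called after RNAi under any alternative or without any 1 library, and these p-values say nothing of stability. comp10924 rests on 29 to 64 counts in each X1 library.

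Counts of calls depended on the tool. *bruli* RNAi in X1 gave 109 with DESeq2, 3 with limma on cRPKM with and without quantile normalization and 128 with the replicate block, where edgeR gave 0. DESeq2 called 7 for *bruli* in Xins, 1 for *mbnl* in X1, 2 for *mbnl* in Xins and 7 for the *bruli* effect in X1 against Xins. Leaving out single libraries gave 0 to 3 for *bruli* in Xins (3 without the second control) and 0 elsewhere. The main fit left replicate number out, so its p-values ignore any effect that same-numbered libraries share. The labels do not say whether a number marks a shared batch. The deviations of same-numbered libraries correlated at 0.05 to 0.74 over 15 pairs of groups (median 0.50), and with the replicate block the adjusted p (edgeR) for *bruli* in X1 was 0.0908 for comp10924 (log2 1.19) and 0.134 for comp3605 (log2 −0.64), with no member called.

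Signs turned only among estimates near 0. For comp10924 limma on cRPKM gave 0.58 for *bruli* in X1 and 0.53 for the *bruli* effect in X1 against Xins, against 1.19 and 1.12 with edgeR. limma on cRPKM, without and with quantile normalization, gave 0.023 and 0.032 for the *bruli* effect in X1 against Xins on comp8035 and −0.057 and −0.061 for the *mbnl* effect on comp10924. Leaving out single libraries gave −0.20 to 0.012 (comp8035) and −0.044 to 0.20 (comp10924) for *bruli* in Xins, −0.11 to 0.026 for *mbnl* in X1 on comp8035, −0.15 to 0.063 for the *bruli* effect in X1 against Xins on comp8035, and −0.012 to 0.29, −0.21 to 0.35 and −0.035 to 0.33 for the *mbnl* effect in X1 against Xins on comp8035, comp10924 and comp3605. For *bruli* in X1 the range was 0.95 to 1.42 for comp10924 and −0.72 to −0.57 for comp3605. Ranges that kept their sign but moved by over 1.5 times were −0.20 to −0.07 for *bruli* in X1 and −0.32 to −0.03 for *mbnl* in Xins on comp8035, −0.43 to −0.07 for *bruli* in Xins on comp3605, 0.14 to 0.69 for *mbnl* in X1 on comp10924, −0.13 to −0.02 for *mbnl* in X1 on comp3605, 0.10 to 0.47 for *mbnl* in Xins on comp10924, −0.40 to −0.04 for *mbnl* in Xins on comp3605, and −0.57 to −0.21 for the *bruli* effect in X1 against Xins on comp3605.

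Fraction differences depended on the scaling in size. With limma on cRPKM X1 minus Xins was −0.19, −3.72 and 2.75 for comp8035, comp10924 and comp3605, and X2 minus X1 was 0.99, 2.20 and −0.94. After quantile normalization comp10924 was at −3.09 for X1 minus Xins and −1.001 for X2 minus Xins, and X2 minus X1 was 0.96, 2.09 and −0.83. In RNAi-treated libraries X1 minus Xins was −4.09 for comp10924, X2 minus X1 was 1.09, 2.78 and −0.76, and X2 minus Xins was 1.33 for comp8035 and 2.32 for comp3605. The pseudocount inside the limma scale pulls low values such as comp10924 in X1 toward 0. By counts in place of cRPKM, which weights long transcripts more, the family shares in X1, X2 and Xins were 1.84%, 5.79% and 8.61% for comp8035, 0.0998%, 1.60% and 13.7% for comp10924 and 36.8%, 29.9% and 21.7% for comp3605. The 60 alternative ratios of whole worm and X2 libraries stayed within the counting interval of their main value.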
